A study of Mus musculus with 24 samples.

Results

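Adipokines are the hormones and enzymes that fat cells secrete, and 10 of their genes were followed in the mouse mammary gland: Lep, Adipoq, Retn, Cfd, Rbp4, Nampt, Apln, Rarres2, Angptl4 and Nrg4. Every non-control probe whose gene name in the scanner files was one of these symbols was taken, which gave 15 probes for the 10 genes out of 56605 non-control probes in all. All 10 genes were among the 22382 genes tested, and the probe that stood for each was well above background on 24 of 24 arrays. The glands came from 4 groups of C57BL/6 females: 5 SOCS2 knock-in mice at day 18 of pregnancy, 5 wild-type mice at the same day, 7 SOCS2 knock-in virgins of 8 weeks and 7 wild-type virgins of 8 weeks. The knock-in mice were homozygous for the R96C allele of Socs2, a suppressor of cytokine receptor signalling. The labels used here give no age for the day-18 mice, so stage and age cannot be told apart. The tissue was the inguinal gland with its lymph node taken out, each array held labelled RNA of 1 animal, and no animal was shared between groups. Values below are log2 signals minus the 75th percentile of the same array, so that a value of 0 means a signal equal to that percentile.

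Fat fills most of the virgin mammary gland, and through pregnancy the epithelium expands into it and the adipocytes lose lipid. Leptin, the product of Lep, reports fat stores to the brain, while adiponectin (Adipoq) raises insulin sensitivity and resistin (Retn) is associated with insulin resistance in mice. Other members are carriers or enzymes: factor D (Cfd, also called adipsin) is the protease that activates the alternative complement pathway, Rbp4 carries retinol in blood, Nampt makes a precursor of NAD, and Angptl4 inhibits lipoprotein lipase. The last 3 are receptor ligands: apelin (Apln) binds the receptor Aplnr, chemerin (Rarres2) attracts immune cells through Cmklr1, and Nrg4 is a ligand of ErbB4 that brown fat makes in quantity.

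The probes show what was read for each gene, and 6 of the 15 are printed with their mm9 positions. Those of Lep and Adipoq, both on the plus strand, lie at chr6:29020910-29020969 and chr16:23157576-23157635, and that of Retn lies at chr8:3657312-3657371 on the plus strand. The 2 Cfd probes lie at chr10:79355302-79355361 and chr10:79355274-79355333 on the plus strand, overlap, and have their 32 shared bases in capitals. The values of Lep, Adipoq, Retn and Cfd come from the probes shown for them, for Cfd from the downstream one. The Nrg4 values come from a probe at chr9:55068030-55068089 on the minus strand, which is not printed. The Nrg4 probe shown is another of its 4, printed because it maps across a gap in the genome, to chr9:55075745-55084303 on the minus strand with 8499 bases left out.
Lep: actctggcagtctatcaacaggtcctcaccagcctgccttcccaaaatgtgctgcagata
Adipoq: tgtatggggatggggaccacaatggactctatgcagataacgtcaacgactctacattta
Retn: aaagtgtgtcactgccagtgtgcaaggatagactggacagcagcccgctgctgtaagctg
Cfd, downstream probe: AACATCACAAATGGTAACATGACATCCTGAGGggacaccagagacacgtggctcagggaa
Cfd, upstream probe: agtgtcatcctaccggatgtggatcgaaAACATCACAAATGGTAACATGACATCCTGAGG
Nrg4, probe over the gap: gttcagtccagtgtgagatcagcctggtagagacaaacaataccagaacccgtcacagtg

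The number of spots above background ranged over the arrays from 33374 to 57003, and no spot of the adipokine probes was saturated. The highest number, 57003 of 59305 spots, was on the array of mouse 376, and the next highest was 43055. Being above background therefore says little on that array. Mouse 376, a knock-in virgin, stood apart with a negative-control signal of 332 intensity units, against 19.4 to 41.4 on the other arrays. Some differences of Lep, Cfd, Nampt and Angptl4 are also given without it, and most other results include it. The arrays lay on 3 slides, and every slide held all 4 groups. White adipocyte markers checked the tissue: 20 of 20 were measured and were well above background on every array. Their mean log2 value was 2.10 to 3.52 in knock-in and 3.16 to 3.62 in wild-type glands at day 18, against 2.93 to 5.19 in knock-in and 4.56 to 4.92 in wild-type virgins. In bulk tissue, fewer cells of a type and less RNA per cell cannot be told apart.

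Day 18 of pregnancy was first set against the virgin stage. In knock-in glands, 3 of the 10 genes rose (Apln, Angptl4 and Nampt), 5 fell (Nrg4, Rbp4, Rarres2, Adipoq and Retn), and Lep and Cfd did not pass the test. Over all genes the same test called 43.2% (22.9% higher and 20.3% lower), and the median log2 difference was -1.40 for the 10 genes and 0.05 for all genes. In wild-type glands the counts were again 3 up and 5 down, against 41.8% of all genes called (20.9% higher and 20.9% lower), with medians of -0.90 for the 10 genes and 0.01 for all. The same 8 genes were called in both genotypes, each in the same direction. The stages did not overlap for 5 of the 10 genes in knock-in mice (20.2% of all genes) and 8 of 10 in wild-type mice (39.2% of all genes). Adipoq and Retn overlapped in knock-in mice only through mouse 376, which these knock-in counts include. The test was limma's moderated test with Benjamini-Hochberg adjustment over all genes, at an adjusted p under 0.05, and differences are given with their standard errors.

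**Figure D1:**
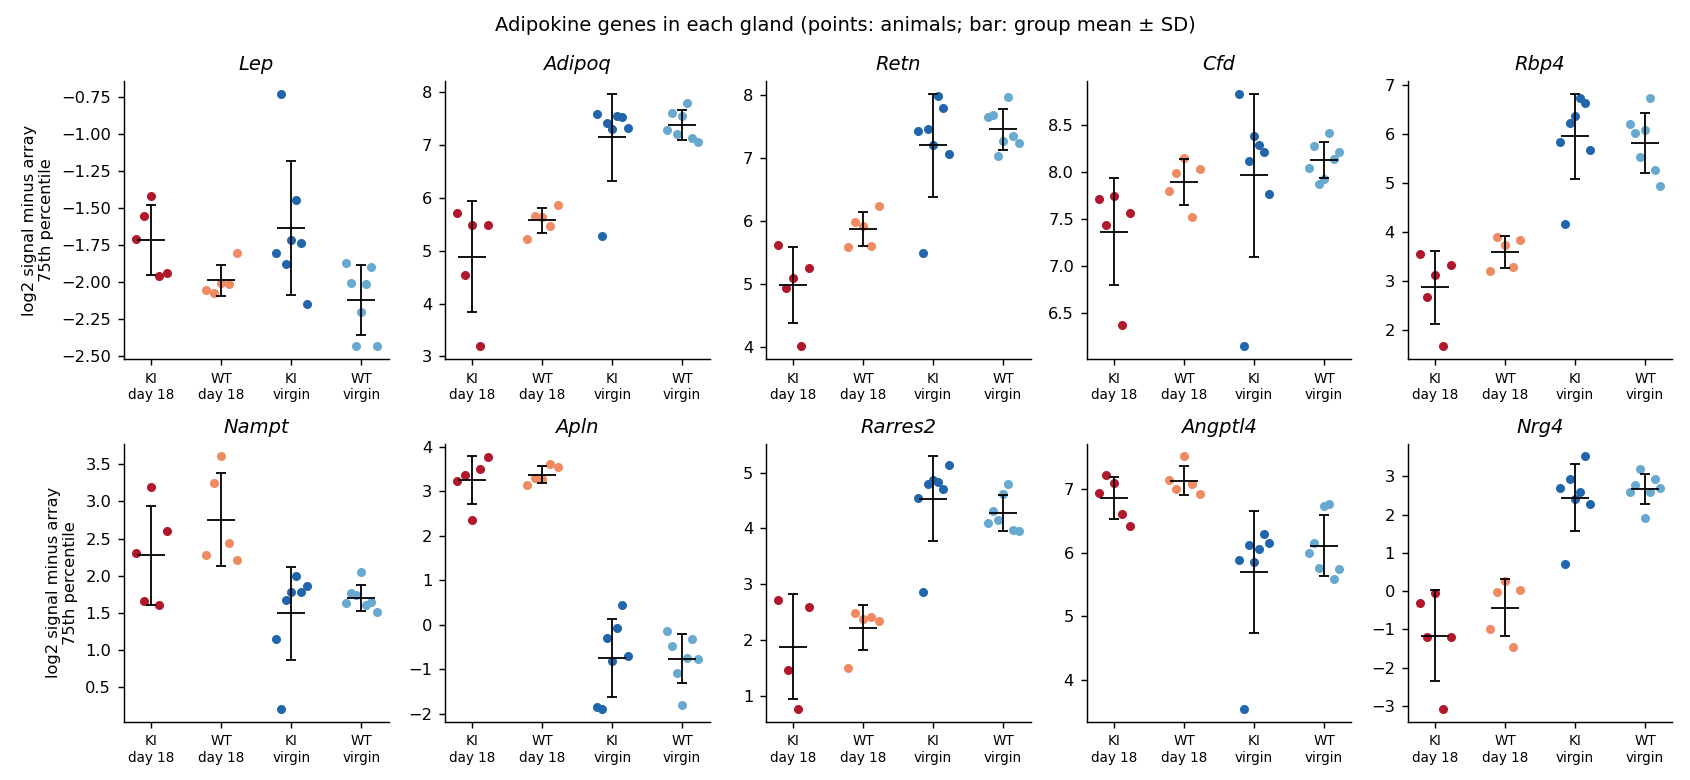
Log2 signal minus the array's 75th percentile for each of the 10 genes (vertical axes differ between panels), with 1 point per animal and the group mean ± SD as a bar. Apln at day 18 lies between 2.36 and 3.78 in every animal, and no virgin exceeds 0.45; Nrg4 runs the other way, from -3.08 to 0.27 at day 18 against 0.70 to 3.52 in virgins.

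The hormones came first. Adiponectin's gene had values of 5.49, 5.49, 4.55, 5.71 and 3.19 in the knock-in and 5.64, 5.47, 5.66, 5.23 and 5.87 in the wild-type glands at day 18. Virgin values had a low, median and high of 5.28, 7.42 and 7.59 in knock-in mice and 7.05, 7.29 and 7.80 in wild-type mice. Every wild-type day-18 gland was below every wild-type virgin, and among knock-in mice only the virgin of 5.28, mouse 376, reached down into the day-18 range. Adipoq fell 4.77-fold in knock-in glands (log2 difference -2.25 ± 0.38, limma adjusted p = 4.9e-05) and 3.49-fold in wild-type glands (-1.80 ± 0.38, adjusted p = 5.4e-04).

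Resistin's gene had values of 5.26, 5.10, 4.94, 5.62 and 4.02 in the knock-in and 5.93, 5.61, 5.99, 5.59 and 6.24 in the wild-type glands at day 18. In virgins the low, median and high were 5.49, 7.42 and 7.99 in knock-in mice and 7.02, 7.35 and 7.97 in wild-type mice. The wild-type stages did not overlap, and the knock-in stages overlapped only through mouse 376. Retn fell 4.63-fold in knock-in glands (log2 difference -2.21 ± 0.32, limma adjusted p = 7.6e-06) and 2.99-fold in wild-type glands (-1.58 ± 0.32, adjusted p = 3.6e-04).

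Leptin's gene stood in contrast, with values of -1.94, -1.42, -1.55, -1.71 and -1.96 in the knock-in and -2.00, -2.01, -2.07, -2.05 and -1.80 in the wild-type glands at day 18. In virgins the low, median and high were -2.14, -1.73 and -0.73 in knock-in mice and -2.43, -2.01 and -1.87 in wild-type mice. The stages overlapped in both genotypes. The log2 difference was -0.08 ± 0.19 in knock-in glands (95% confidence interval -0.47 to 0.31, limma adjusted p = 0.767) and 0.13 ± 0.19 in wild-type glands (-0.26 to 0.52, adjusted p = 0.611). With spike-in scaling Lep fell, by 0.91 in knock-in (adjusted p = 0.0040) and by 0.79 in wild-type glands (adjusted p = 0.0098) on the log2 scale. That scaling lowered the median of all genes by a similar amount.

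Apln, the ligand of the apelin receptor, gave the widest separation between stages. Day-18 values were 3.78, 2.36, 3.37, 3.23 and 3.50 in knock-in and 3.27, 3.62, 3.30, 3.15 and 3.54 in wild-type glands. In virgins the low, median and high were -1.90, -0.70 and 0.45 in knock-in mice and -1.80, -0.75 and -0.15 in wild-type mice. Every day-18 gland was above every virgin gland of either genotype. Apln rose 15.9-fold in knock-in glands (log2 difference 3.99 ± 0.35, limma adjusted p = 8.55e-09) and 17.6-fold in wild-type glands (4.14 ± 0.35, adjusted p = 5.05e-09). Within the 3 slides the difference was 3.31 to 4.99 in knock-in and 3.59 to 4.67 in wild-type mice.

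Nrg4, the ErbB4 ligand, ran the other way. Day-18 values were -1.20, -0.03, -1.19, -0.32 and -3.08 in knock-in and 0.27, -1.45, -0.03, -0.98 and 0.03 in wild-type glands. Virgin values had a low, median and high of 0.70, 2.60 and 3.52 in knock-in mice and 1.91, 2.69 and 3.21 in wild-type mice. No day-18 gland reached the lowest virgin of its genotype. Nrg4 fell 12.2-fold in knock-in glands (log2 difference -3.61 ± 0.46, limma adjusted p = 1.2e-06) and 8.63-fold in wild-type glands (-3.11 ± 0.46, adjusted p = 9.6e-06). Within the slides the difference was -4.25 to -3.12 in knock-in and -3.45 to -2.43 in wild-type mice.

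Because brown fat is a known source of Nrg4, its markers are given beside it. Of 11 measured brown adipocyte markers, 5 fell and 2 rose in knock-in glands (43.2% of all genes called). In wild-type glands 4 fell and 2 rose (41.8% of all genes called). Their mean log2 value was -1.60 to 0.38 in knock-in and -1.50 to -1.05 in wild-type glands at day 18, against -1.18 to 2.02 in knock-in and -0.82 to 1.04 in wild-type virgins. Ucp1, the uncoupling protein of brown fat, was well above background on 3 of 5 day-18 and 7 of 7 virgin arrays in knock-in mice, mouse 376 included. In wild-type mice it was above background on 0 of 5 day-18 and 6 of 7 virgin arrays, and was at least 10.5-fold lower at day 18 there (limma adjusted p = 0.00737). The part of brown fat in the Nrg4 difference was not tested.

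Rarres2, which encodes the chemoattractant chemerin, had values of 2.60, 1.46, 2.71 and 0.76 in knock-in and 2.37, 2.41, 2.49, 1.50 and 2.34 in wild-type glands at day 18. The spot of 1 knock-in gland, mouse 184, was marked as an outlier by the scanner software and left out, so that n was 4 there. Virgins had a low, median and high of 2.87, 4.79 and 5.13 in knock-in mice and 3.96, 4.15 and 4.80 in wild-type mice. The stages did not overlap in either genotype. Rarres2 fell 6.29-fold in knock-in glands (log2 difference -2.65 ± 0.38, limma adjusted p = 7.0e-06) and 4.15-fold in wild-type glands (-2.05 ± 0.35, adjusted p = 6.9e-05).

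Among the carriers and enzymes, the retinol carrier gene Rbp4 had values of 3.33, 3.13, 2.68, 3.55 and 1.66 in knock-in and 3.74, 3.29, 3.90, 3.21 and 3.83 in wild-type glands at day 18. Virgins had a low, median and high of 4.17, 6.24 and 6.74 in knock-in mice and 4.95, 6.02 and 6.74 in wild-type mice. All day-18 glands were below all virgins of either genotype. Rbp4 fell 8.47-fold in knock-in glands (log2 difference -3.08 ± 0.39, limma adjusted p = 1.2e-06) and 4.70-fold in wild-type glands (-2.23 ± 0.39, adjusted p = 6.9e-05).

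Factor D's gene did not pass the test in either genotype, and in knock-in mice its call depended on the setting. Cfd values at day 18 were 7.56, 7.75, 7.43, 7.71 and 6.37 in knock-in and 8.15, 7.52, 7.98, 7.80 and 8.03 in wild-type glands. In virgins the low, median and high were 6.15, 8.21 and 8.83 in knock-in mice and 7.87, 8.14 and 8.41 in wild-type mice. The stages overlapped in both genotypes, and the lowest gland of each knock-in group (mouse 239 at day 18, mouse 376 among virgins) lay apart from the rest. The log2 difference was -0.60 ± 0.32 in knock-in glands (95% confidence interval -1.25 to 0.06, limma adjusted p = 0.137) and -0.23 ± 0.32 in wild-type glands (-0.88 to 0.43, adjusted p = 0.606). Without mouse 376 the knock-in difference was -0.90 and passed (adjusted p = 9.8e-04). Of 16 other settings, 7 called Cfd lower in knock-in glands and 1, the scaling to adipocyte markers described below, called it higher. In wild-type glands 2 called it lower and that same 1 higher.

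Nampt and Angptl4 rose by less than Apln did. Nampt, the enzyme of NAD salvage, had values of 2.60, 3.19, 1.66, 2.30 and 1.61 in knock-in and 3.61, 2.44, 3.25, 2.29 and 2.21 in wild-type glands at day 18. In virgins the low, median and high were 0.20, 1.78 and 1.99 in knock-in mice and 1.51, 1.65 and 2.05 in wild-type mice. The wild-type stages did not overlap, while 2 knock-in glands at day 18 lay within the knock-in virgin range. Nampt rose 1.72-fold in knock-in glands (log2 difference 0.78 ± 0.31, limma adjusted p = 0.0453) and 2.07-fold in wild-type glands (1.05 ± 0.31, adjusted p = 0.0085), but with spike-in scaling, which lowered the median of all genes, the differences were -0.05 and 0.13. The knock-in call held in 5 of 16 other settings, against 14 of 16 for the wild-type call. It was lost without any 1 of the knock-in virgins 196, 314 and 376, the knock-in day-18 mice 183, 184 and 211 or 6 of the wild-type virgins, with a difference of 0.55 to 0.81 and an adjusted p of 0.051 to 0.161.

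Angptl4, the inhibitor of lipoprotein lipase, had values of 6.42, 7.09, 7.22, 6.93 and 6.60 in knock-in and 7.51, 7.07, 6.99, 7.14 and 6.91 in wild-type glands at day 18. In virgins the low, median and high were 3.55, 6.05 and 6.29 in knock-in mice and 5.58, 6.00 and 6.77 in wild-type mice. The stages did not overlap in either genotype, and the lowest knock-in virgin was again mouse 376. Angptl4 rose 2.22-fold in knock-in glands (log2 difference 1.15 ± 0.35, limma adjusted p = 0.0096) and 2.03-fold in wild-type glands (1.02 ± 0.35, adjusted p = 0.0214). The call held in 12 of 16 other settings in knock-in and 13 of 16 in wild-type glands, and with spike-in scaling the differences were 0.32 and 0.10 and did not pass. Without wild-type day-18 mouse 206 the wild-type difference was 0.92 and did not pass (adjusted p = 0.060), and without mouse 376 the knock-in difference was 0.80 and passed (adjusted p = 0.00203).

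**Figure D2:**
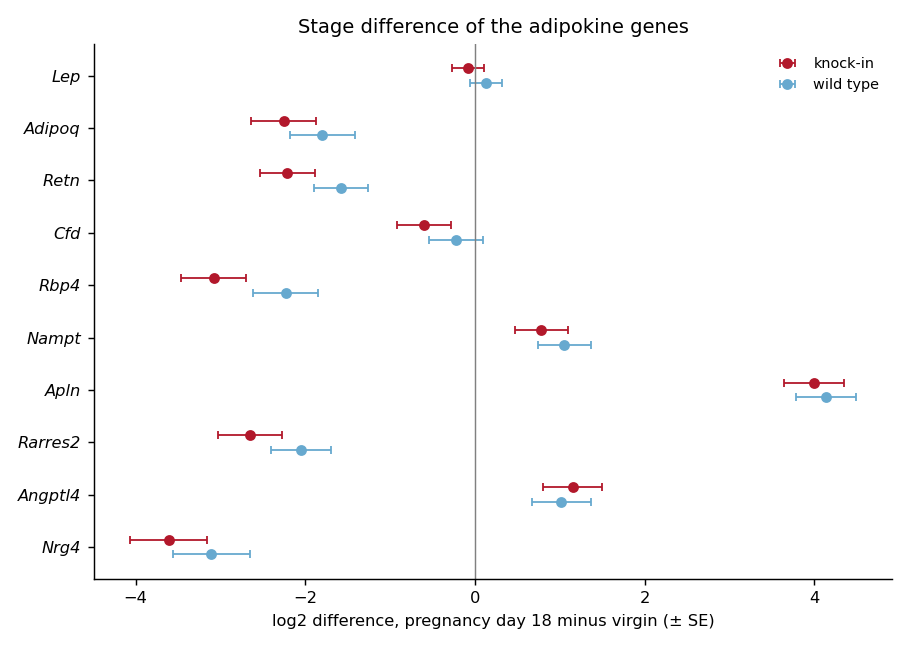
Log2 difference between pregnancy day 18 and the virgin stage (horizontal axis, ± SE) for each gene, knock-in above wild type. The 5 genes that fell lie between -3.61 and -1.58, Lep and Cfd lie between -0.60 and 0.13, and Apln stands at 3.99 and 4.14.

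Where a gene had several probes, they were compared, since probes read different stretches of its transcripts. The second Retn probe, 2445 bases further along the chromosome, fell by 1.91 in knock-in and by 1.30 in wild-type glands on the log2 scale (adjusted p over all probes = 0.0015 in wild type). All 4 Nrg4 probes fell, by 3.58 to 3.82 in knock-in and by 3.01 to 3.35 in wild-type glands on the log2 scale, and 2 of them were well above background on 23 of 24 arrays, mouse 239 being the exception. The Cfd probes, printed above with their shared bases in capitals, differed in their calls. The upstream Cfd probe had a log2 difference of -1.07 ± 0.33 in knock-in glands (adjusted p over all probes = 0.0121) and -0.62 ± 0.33 in wild-type glands (0.143), against -0.60 (0.146) and -0.23 (0.617) for the downstream probe.

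**Figure D3:**
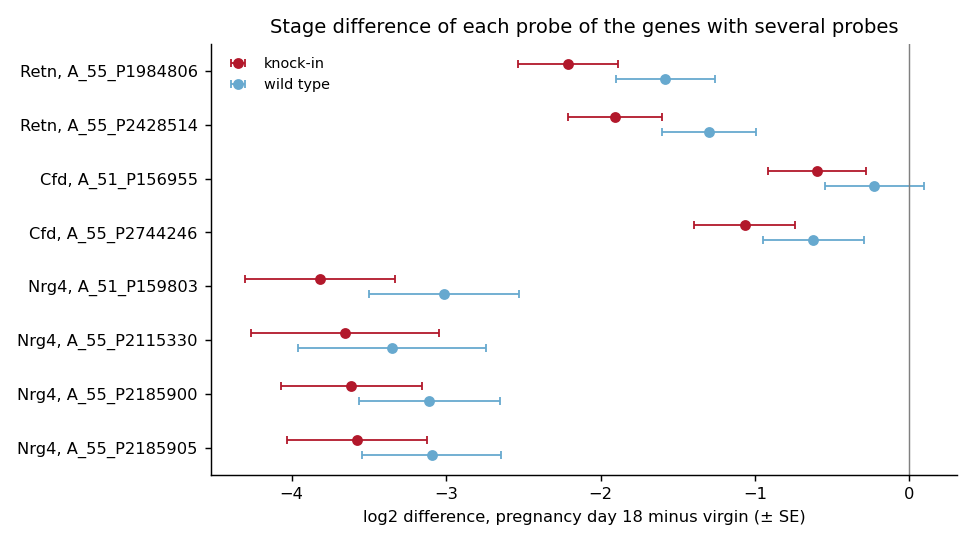
Log2 difference between pregnancy day 18 and the virgin stage (horizontal axis, ± SE) for each probe of the 3 genes with more than 1 probe, knock-in above wild type. The 4 Nrg4 probes lie between -3.82 and -3.01, and the upstream Cfd probe lies below the downstream one in both genotypes.

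The adipokine genes were then set beside markers of the gland's cell types. The 20 white adipocyte markers had a mean log2 value 1.58 lower at day 18 in knock-in and 1.33 lower in wild-type mice. Of these markers 15 fell and 1 rose in knock-in glands (median difference -1.91), and 13 fell and 0 rose in wild-type glands (median -1.72). Among those that fell in both were Plin1, the lipid-droplet coat protein (-2.91 in knock-in, -2.65 in wild type), and Adrb3, the fat cell's adrenergic receptor (-3.06 and -2.62), while Fabp4, a fatty acid carrier, had differences of -0.42 and -0.22 that did not pass. Markers of other cell types moved too. Of 14 luminal epithelial markers, which include the milk protein genes Csn2, Wap, Csn3 and Lalba, 11 rose in knock-in and 9 in wild-type glands with none falling. All 12 fibroblast markers fell in both, and 10 of 12 macrophage markers fell in both. Of 12 endothelial markers, 8 fell in knock-in and 6 in wild-type glands with none rising. Of 9 basal epithelial markers, 8 rose in knock-in and 5 in wild-type glands with none falling. Over all genes 43.2% were called in knock-in and 41.8% in wild-type glands. The part of these marker shifts in the adipokine differences was not tested.

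A scaling chosen after the data were seen, in which each array was set to the mean of its white adipocyte markers, gives the adipokine genes relative to those markers. Under it the median log2 difference of all genes was 1.63 in knock-in and 1.35 in wild-type mice, so the values are read against the markers and not against all RNA. On this scale 5 genes rose and 5 fell in knock-in glands, and 5 rose and 4 fell in wild-type glands. Most of all genes were called on this scale too, in both genotypes, and their counts are given with the other settings below. Lep was higher at day 18 by 1.50 ± 0.39 in knock-in (limma adjusted p = 0.0017) and 1.47 ± 0.39 in wild-type glands (adjusted p = 0.0023), and Cfd by 0.98 ± 0.17 and 1.11 ± 0.17. Every day-18 gland of either genotype had a Cfd value of at least 4.19 relative to the markers, above every virgin, the highest being 4.06. How many of all genes separate the stages on this scale was not counted. Cfd rose by less than the median of all genes on this scale in both genotypes, and Lep did so in knock-in glands.

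Relative to the markers the falls were smaller and unequal. Nrg4 was lower by 2.03 ± 0.30 in knock-in and 1.78 ± 0.30 in wild-type glands, and Rbp4 by 1.50 ± 0.21 and 0.90 ± 0.21. Single markers also fell beyond the marker mean, such as Plin1, by 2.91 in knock-in and 2.65 in wild-type glands before this scaling. Rarres2 was lower by 0.98 ± 0.22 in knock-in and 0.72 ± 0.21 in wild-type glands, and Adipoq by 0.67 ± 0.19 and 0.47 ± 0.19 (limma adjusted p = 0.0306 in wild type). Retn was lower by 0.63 ± 0.16 in knock-in glands (adjusted p = 0.0014) and by 0.25 ± 0.16 in wild-type glands, where it did not pass (adjusted p = 0.177).

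**Figure D4:**
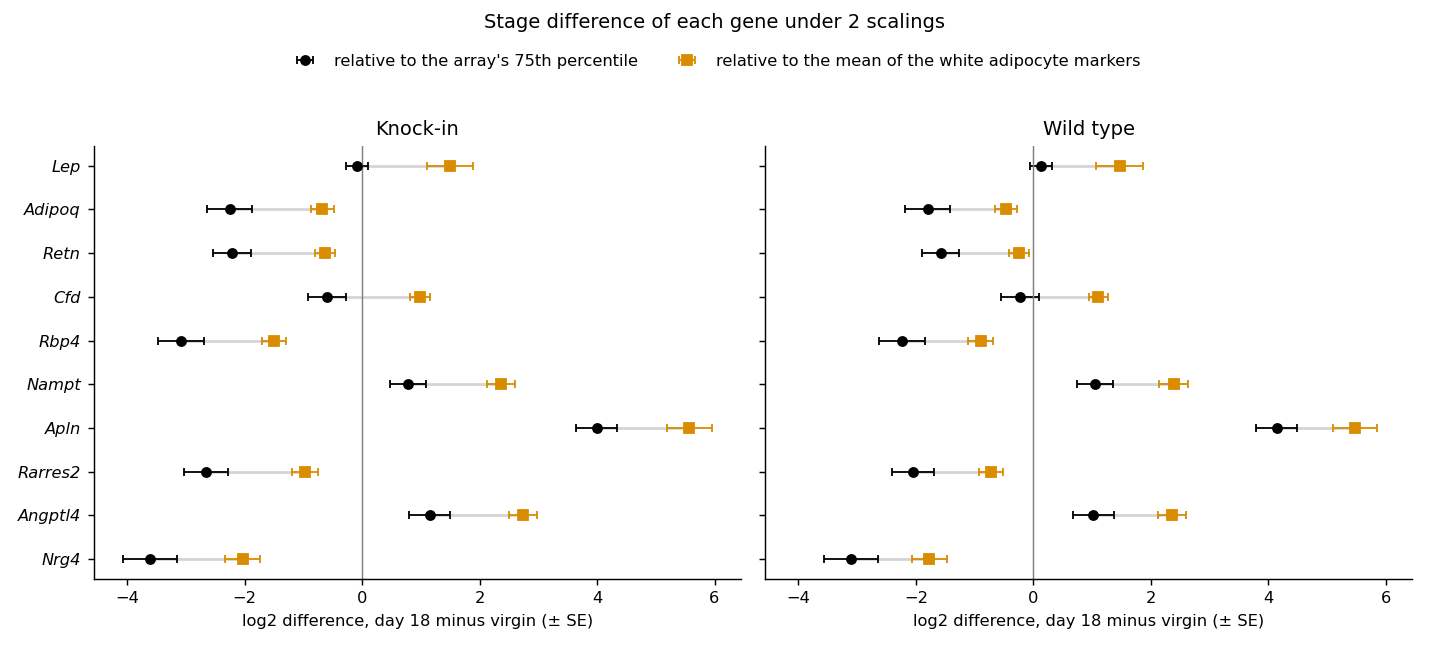
Log2 difference between pregnancy day 18 and the virgin stage (horizontal axis, ± SE) for each gene, knock-in on the left and wild type on the right, with black circles relative to the array's 75th percentile and orange squares relative to the mean of 20 white adipocyte markers. Relative to the markers Lep and Cfd lie between 0.98 and 1.50, while Nrg4, Rbp4, Rarres2, Adipoq and Retn remain below 0.

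The genes that act with the adipokines were counted next, in lists of which up to 4 called genes are named by the size of the wild-type difference. The counts of all these lists stand beside 43.2% of all genes called in knock-in glands (22.9% higher and 20.3% lower). In wild-type glands that share was 41.8% (20.9% higher and 20.9% lower). Of 14 measured receptors and binding partners (17 listed), 6 rose and 2 fell in each genotype. Adipor2, an adiponectin receptor, fell 2.24-fold in knock-in and 2.40-fold in wild-type glands, while Lepr, the leptin receptor, rose 2.31-fold and 2.30-fold. Erbb3, a relative of the Nrg4 receptor, rose 2.99-fold in knock-in and 2.36-fold in wild-type glands. Stra6l, a membrane receptor of Rbp4, rose 3.66-fold and 3.92-fold, though only 3 of 7 knock-in and 5 of 7 wild-type virgin arrays were well above background for it. Aplnr, the apelin receptor, fell 1.63-fold in knock-in glands (limma adjusted p = 0.0278) and had a difference of -0.61 ± 0.25 in wild-type glands that did not pass (0.0567). Erbb4 itself rose 1.46-fold in knock-in and 1.63-fold in wild-type glands.

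Of 10 genes in and around the alternative complement pathway, which factor D activates, 6 fell and 1 rose in each genotype. Among those that fell were the stabiliser properdin, Cfp (3.78-fold in knock-in, 4.18-fold in wild type), and the anaphylatoxin receptors C3ar1 (3.06-fold and 3.13-fold) and C5ar1 (2.91-fold and 2.82-fold). C3, the central component, had differences of 0.31 ± 0.25 in knock-in and -0.18 ± 0.25 in wild-type glands that did not pass. Macrophage markers also fell, in 10 of 12 cases, as did all 12 fibroblast markers. The part of either in these differences was not tested.

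Of 8 measured genes that control lipoprotein lipase, the target of Angptl4, 4 fell and 1 rose in knock-in glands, and 3 fell and 2 rose in wild-type glands. Apoc3, an inhibitor of the lipase, fell 6.90-fold in knock-in and 4.47-fold in wild-type glands, and Angptl8, a secreted regulator of the lipase, fell 5.69-fold and 4.13-fold. Lmf1, which folds the lipase, rose 2.13-fold and 1.92-fold, and Gpihbp1, which anchors it in capillaries, rose 1.76-fold in wild-type glands and had a difference of 0.60 ± 0.29 in knock-in glands that did not pass. The lipase gene Lpl had differences of -0.43 ± 0.34 in knock-in and -0.30 ± 0.34 in wild-type glands, neither of which passed.

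Of 9 measured genes of NAD metabolism around Nampt, 6 fell and 0 rose in each genotype. Nnmt, which draws nicotinamide away from salvage, fell 6.43-fold in knock-in and 8.01-fold in wild-type glands, Naprt, the nicotinic acid enzyme, fell 3.93-fold and 3.63-fold, and Qprt, of the route from tryptophan, fell 3.11-fold and 2.82-fold. Nmnat2 was also called lower, with 3 of 5 knock-in and 1 of 5 wild-type day-18 arrays well above background. Among 9 measured relatives of adiponectin (11 listed), 6 fell and 0 rose in each genotype, led in wild type by C1qtnf7 (4.35-fold in knock-in, 3.40-fold in wild type), C1qtnf6 (2.64-fold and 3.02-fold), C1qtnf5 (3.79-fold and 2.62-fold) and C1qtnf2 (2.97-fold and 2.55-fold). Of 2 measured relatives of resistin, Retnla fell 5.97-fold in knock-in and 4.89-fold in wild-type glands, and Retnlg did not pass.

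For each adipokine gene that was called, the 3 other genes whose values lay closest over the 24 arrays were found by the root mean square (RMS) difference of log2 values after each gene's mean was subtracted. This likeness is a description, since the arrays share the stage difference. Adipoq lay closest to Smoc1 and Adh1 (RMS 0.19 each) and to a transcript that the file gives no symbol. Retn lay closest to Enpp2 (0.23), Gstz1 (0.26) and Immp2l (0.26), and Rbp4 to Dgat2 (0.27), Aox1 and Plin1 (0.31 each), of which Dgat2 and Plin1 are among the white adipocyte markers. Rarres2 lay closest to Sod3 (0.17), Sgce (0.24) and Twist2 (0.25), and Nrg4 to Slc36a2 (0.37), Nat8l (0.38) and Mgst2 (0.43). Of the genes that rose, Nampt lay closest to Irak1 (0.25), Selenos (0.26) and Slc25a17 (0.27), Angptl4 to Atox1, H3c4 and Fth1 (0.29 each), and Apln to Lgr4 (0.57), Foxc1 (0.59) and a transcript named only by its position (0.59). Among the adipokine genes, the closest pairs were Adipoq with Retn (0.28), Adipoq with Rarres2 (0.36) and Rbp4 with Rarres2 (0.41), and the closest pair of genes that rose was Nampt with Angptl4 (0.49).

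RefSeq promoters of GRCm38.p6, from 250 bases before to 50 after the start, were available for 8 of the 10 genes, 9 promoters in all. The C/EBP motif TTGCNNAA, searched on both strands, was in 3 of the 9, against 10.8% of 32851 promoters of the same length. These matches lay at -55 in Lep, at 39 in Nrg4 and at -128 in 1 of the Rbp4 promoters. The STAT5 motif TTCNNNGAA, was in 0 of 9 (8.3% of all promoters), the nuclear receptor motif AGGTCA in 2 of 9 (16.3%) and the hypoxia motif ACGTG in 3 of 9 (19.6%). The 250 bases before the start are printed for Lep and Rbp4 because both hold a C/EBP match, in capitals, while Rbp4 fell and Lep did not pass the stage test; Lep lies at chr6:29059971-29060220 on the plus strand and Rbp4 at chr19:38124812-38125061 on the minus strand.
Lep promoter: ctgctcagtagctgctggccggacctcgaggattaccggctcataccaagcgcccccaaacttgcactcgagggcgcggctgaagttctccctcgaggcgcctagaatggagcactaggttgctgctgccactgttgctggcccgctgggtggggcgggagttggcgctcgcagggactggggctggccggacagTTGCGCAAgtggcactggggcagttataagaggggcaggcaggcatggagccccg
Rbp4 promoter: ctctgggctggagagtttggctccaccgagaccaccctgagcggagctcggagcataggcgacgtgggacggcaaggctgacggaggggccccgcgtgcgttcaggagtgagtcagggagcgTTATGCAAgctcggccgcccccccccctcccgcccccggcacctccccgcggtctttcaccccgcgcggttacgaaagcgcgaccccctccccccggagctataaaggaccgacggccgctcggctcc

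Knock-in and wild-type glands were compared within each stage, to see whether the R96C allele altered these genes. None of the 10 genes passed the limma test with Benjamini-Hochberg adjustment in virgins, at day 18, on the average of both stages or for the difference between the stages, against 0% of all genes called in each of these 4 comparisons. The genotypes overlapped for all 10 genes in virgins and at day 18, where 0.0134% and 1.25% of all genes did not overlap. At an unadjusted p under 0.05 the count was 1 gene in virgins (Lep), 1 at day 18 (Retn), 2 on the average (Lep and Retn) and 0 for the difference between stages, against 802, 441, 1160 and 228 of the 22382 genes.

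Lep values had a mean of -1.63 ± 0.45 in knock-in virgins and -2.12 ± 0.24 in wild-type virgins (SD, n = 7 each), and -1.71 ± 0.24 in knock-in and -1.99 ± 0.11 in wild-type glands at day 18 (SD, n = 5 each). The groups overlapped at both stages. The log2 difference was 0.49 ± 0.17 in virgins (limma adjusted p = 0.702), 0.27 ± 0.20 at day 18 (adjusted p = 1.00) and 0.38 ± 0.13 on the average of stages (adjusted p = 0.651). Mouse 376, with the highest Lep value of all, was a knock-in virgin, and without it the difference in virgins was 0.34. When arrays were scaled to their median the differences were 0.09 in virgins and -0.10 at day 18, where the median difference of all genes was -0.44 and -0.37.

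Retn averaged 4.99 ± 0.60 in knock-in and 5.87 ± 0.27 in wild-type glands at day 18 (SD, n = 5 each). The groups overlapped only through knock-in mouse 211, whose 5.62 was above 2 of the wild-type values. The log2 difference was -0.88 ± 0.35 (95% confidence interval -1.60 to -0.17, limma adjusted p = 1.00), and within the 3 slides it was -1.29, -0.77 and -0.31. Without knock-in mouse 239 the knock-in mean was 5.23. Over the fits without 1 array the difference was -1.04 to -0.64. The other genes but Lep also had differences below 0 at day 18, of -0.73 (Nrg4) to -0.13 (Apln), with intervals that included 0, and relative to the adipocyte markers those of Rarres2, Apln and Angptl4 were 0.10, 0.21 and 0.07.

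The knock-in glands at day 18 had the larger spread for the 5 genes that fell, with SDs of 0.60 to 1.19 in knock-in against 0.24 to 0.74 in wild-type glands; the difference in spread was not tested. Without mouse 239 the knock-in SDs were 0.52 for Adipoq, 0.29 for Retn, 0.37 for Rbp4, 0.69 for Rarres2 and 0.60 for Nrg4, against 0.24, 0.27, 0.32, 0.40 and 0.74 in wild-type glands, so that Nrg4 then had the smaller spread in knock-in mice. Mouse 239 had the lowest value of its group for Adipoq (3.19), Retn (4.02), Rbp4 (1.66), Rarres2 (0.76) and Nrg4 (-3.08), and it also had the lowest mean of white adipocyte markers, 2.10. Slide 1, which held mouse 239 and a single wild-type day-18 array, gave the lowest knock-in minus wild-type difference of every gene but Apln. For Nrg4 the difference there was -2.41, against -0.10 and 0.39 on the other slides. For Adipoq it was -1.30, against -0.42 and 0.04. Skeletal muscle markers had a mean log2 value of -4.14 to 5.02 in knock-in and -4.39 to 0.06 in wild-type glands at day 18. The part of these markers in the differences was not tested. The test of whether the genotype difference itself changed between stages gave -0.85 ± 0.55 for Rbp4, -0.63 ± 0.45 for Retn and 0.13 ± 0.49 for Angptl4, with an adjusted p of 1.00 for all 10 genes.

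**Figure D5:**
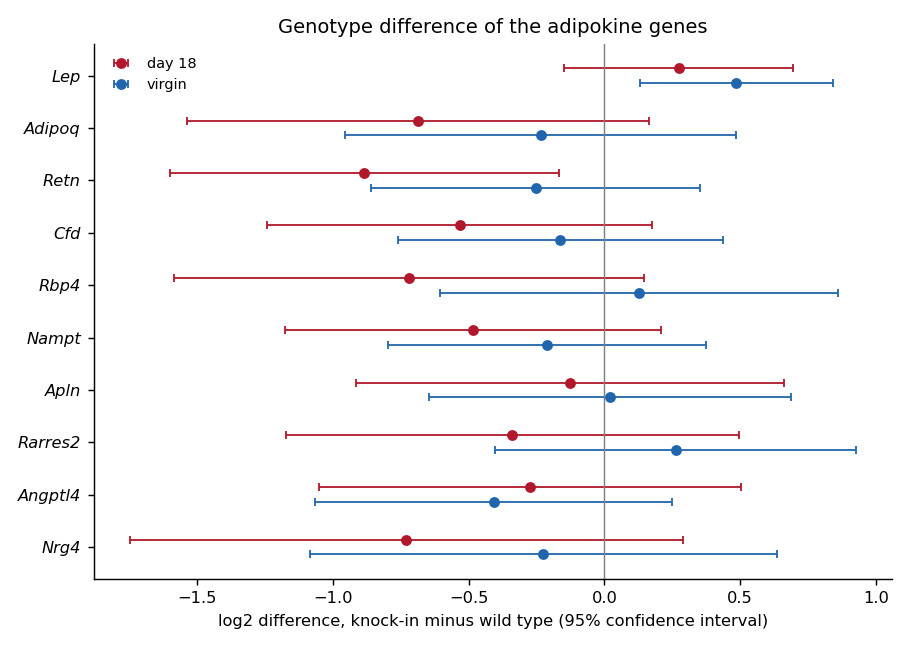
Log2 difference between knock-in and wild type with its 95% confidence interval (horizontal axis) for each gene, day 18 above virgin. The intervals of Lep in virgins (0.13 to 0.84) and Retn at day 18 (-1.60 to -0.17) leave out 0 before adjustment over all genes, and the others include it.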

How the data were processed

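Per the labels, RNA of 24 glands was labelled with Cy3 and hybridised to 60-base mouse probes, 1 array per animal. Per the file headers, the scanner images were read with Agilent Feature Extraction 12.0.3.2, and the deposited intensity of each spot is background-subtracted and not scaled between arrays. A deposited value table gives the same signal as log10, within 0.005 of the values computed here, and served as an alternative.

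Spots marked as outliers were set to missing, spots of a probe were averaged, and log2 signals were set relative to the 75th percentile of their array. Probes entered the test when well above background on 80% of the arrays of at least 1 group (35117 probes), and the probe of the highest mean stood for its gene. The model had a mean for each group over all 24 arrays and was estimated by limma (version 3.58.1, under R 4.3.3), with Benjamini-Hochberg adjustment over 22382 genes. The fit was tested on simulated data. Precision is limited by the number of arrays. Nothing in the labels but the animal number says that samples are separate. The adipokine genes, gene lists and comparisons were chosen with earlier results of these data known. All 10 genes are described, and of each list up to 4 called genes with the largest wild-type stage difference are named, except 1 gene that is not reported here. Aplnr, Erbb4, C3, Lpl, Fabp4, Plin1, Adrb3, Retnlg and Ucp1 were added after their values were seen. Alternatives were other background corrections, scalings, filters and slide blocks, and fits without single arrays.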

Additional observations from a re-analysis of the deposited data

Results flagged for a closer look

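Of 40 sets of values (10 genes in 4 groups), 9 held a highest or lowest animal that lay apart from the rest by Dixon's criterion, where chance flags about 1 set in 20. Mouse 376, a knock-in virgin, was the lowest of its group in 6 of them. Its log2 value was 5.28 for Adipoq (next lowest 7.30), 5.49 for Retn (7.06), 6.15 for Cfd (7.76), 4.17 for Rbp4 (5.69), 2.87 for Rarres2 (4.54) and 3.55 for Angptl4 (5.85). The same array had a negative-control signal of 332 intensity units and the lowest mean of white adipocyte markers among virgins, 2.93. With mouse 376 the knock-in virgin means were 7.14 for Adipoq, 7.20 for Retn, 5.95 for Rbp4 and 4.54 for Rarres2. Without it they were 7.45, 7.48, 6.25 and 4.81. Knock-in mouse 239 at day 18 was lowest for Cfd at 6.37 (7.43), and wild-type mouse 234 at day 18 was lowest for Rarres2 at 1.50 (2.34). Wild-type mouse 235 at day 18 was highest for Lep at -1.80 (-2.00).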

How the results depend on the processing

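No paired analysis was possible because every sample is a different animal and the animal numbers are not shared between groups. Adipoq, Rbp4, Apln, Rarres2 and Nrg4 kept their direction in both stage comparisons under all 16 other settings and all 24 fits without 1 array, and lost a call only for Adipoq in wild type with median scaling (-1.63, limma adjusted p = 0.055). The knock-in count of called genes, 8 as reported, was 6 to 10 over settings and 7 to 8 without 1 array. The wild-type count, also 8 as reported, was 4 with median scaling, where Retn was -1.40 (adjusted p = 0.084), 9 relative to the adipocyte markers, and 7 to 8 without 1 array. The 4 genotype counts were 0 throughout, though of all genes up to 29 were called, in virgins with array weights. Scaling to 7 spike-in probes gave all genes a median of -0.78 in knock-in and -0.91 in wild type, and there Lep was -0.91 in knock-in and -0.79 in wild type, Nampt -0.053 and 0.13, and Angptl4 0.32 and 0.10. Relative to the adipocyte markers, a setting added after the data were seen, Cfd was 0.98 in knock-in and 1.11 in wild type, and Lep 1.50 in knock-in. With quantile normalization Angptl4 was 0.48 in knock-in and 0.44 in wild type and did not pass, while Cfd passed at -1.32 and -0.84. Of all genes 9658 in knock-in and 9357 in wild type were called as reported, 5068 and 5316 with median scaling, 13016 and 14807 with spike-ins, 12815 and 14076 with array weights, and 16809 and 15697 relative to the markers. The cause was not tested. Lep and Nrg4 had signals down to 87.7 and 40.2 intensity units, and small differences there are limited by signal over background.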

Other observations

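Of 14 measured other factors that fat secretes (17 listed), 2 rose and 8 fell in knock-in glands, and 2 rose and 9 fell in wild-type glands. Over all genes 43.2% were called in knock-in and 41.8% in wild-type glands. Lcn2, the iron-siderophore carrier lipocalin, rose 69.0-fold in knock-in and 30.9-fold in wild-type glands. Sfrp5, a secreted Wnt inhibitor, fell 5.12-fold in knock-in and 9.28-fold in wild-type glands, and Angptl2, a relative of Angptl4, fell 6.30-fold and 5.98-fold. Il6, the cytokine, was well above background on 0 of 5 day-18 arrays of either genotype and on 4 of 7 knock-in and 6 of 7 wild-type virgin arrays, and was at least 1.20-fold lower in wild-type glands.

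Of 15 regulators of fat cell identity and lipid genes, 3 rose and 6 fell in each genotype, against 43.2% of all genes called in knock-in and 41.8% in wild type. The 4 largest wild-type changes were of Ebf2 (7.57-fold lower in knock-in, 6.70-fold in wild type), a factor of adipocyte precursors, Cebpa (4.49-fold and 3.67-fold lower) and Nr1h3 (3.47-fold and 3.52-fold lower), which act in mature fat cells, and Zfp423 (3.47-fold and 3.03-fold lower), of white fat identity. Pparg, the main factor of fat cell formation, fell 3.56-fold and 3.03-fold, and its relative Ppard rose 2.94-fold and 2.46-fold; these 2 were chosen after their values were seen.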
